A study of Mus musculus with 6 samples.

Results

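Transcripts of the machinery that carries new proteins into and out of the endoplasmic reticulum (ER) were compared between the tumour stroma of Pdia4 -/- (KO) and wild-type (WT) mice. The 53 listed genes were taken as members where an array probe set is annotated to that gene alone. This held for 52 of them, out of 18194 genes with such a probe set on the array. Sec61g, a small subunit of the translocon, shares its probe set with other genes and was left out. The 52 genes had 112 probe sets, of which 103 were tested because they were called Present on at least 3 of the 6 arrays. All 52 genes had at least 1 tested probe set, and the brightest tested one stands for the gene.

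Secretory and membrane proteins are recognised on the ribosome by the signal recognition particle (SRP), threaded through the Sec61 translocon and trimmed by signal peptidase. The oligosaccharyltransferase then transfers a glycan to asparagine residues, and glucosidases and the folding sensor UGGT1 edit its glucose residues while the protein folds with disulphide isomerases such as PDIA4. Folded cargo leaves in COPII vesicles, whereas COPI vesicles and the KDEL receptors return escaped ER residents. Cells with a heavy secretory load, such as fibroblasts and plasma cells, are rich in this machinery.

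Stroma came from male B6 mice 4 weeks after tumour cells were placed under the skin, with 3 arrays for WT and 3 for Pdia4-/-, and the labels give no other difference between the groups. The sources used here do not give the age of the mice, the allele, how stroma was separated from tumour cells, or whether replicates came from separate mice. The p-values therefore reflect only the spread among these samples, which may be technical. The inoculated cells are called LLC (Lewis lung carcinoma) in the growth protocol and GK1 in the design text. Values are linear signal intensities that the authors scaled to a common target on each array.

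KO replicate 3 stood apart. Across tested probe sets, the correlation of its log2 signals with each other array was 0.889 to 0.946. The code that heads its signal column also begins with another number than that of the other arrays, and what the code stands for is not stated. For the members that moved most with it, values without it are also given. The β-actin 3' to 5' ratio, a sign of RNA integrity, was 1.66 to 4.26 on WT arrays and 1.51 to 1.99 on KO arrays. The Gapdh 3' to 5' ratio was 0.896 to 2.52 on WT arrays and 0.827 to 1.3 on KO arrays. The part of RNA integrity in the results was not tested. Pdia4 itself read 3942, 2766 and 4104 on the WT arrays and 2324, 1521 and 1402 on the KO arrays, so that every KO array lay below every WT array but none lacked signal. Its log2 difference, KO minus WT, was -1.06 (SE 0.28; limma adjusted p = 0.161, n = 3 per group). Where the deleted part lies relative to this probe set is not known here. All differences are given as KO minus WT, the reverse of the sign in the authors' deposited table of folds.

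On the probe set that stands for each gene, most of the secretory machinery lay within 0.5 log2 units of WT. This included every measured gene of the SRP, translocon, signal peptidase and both vesicle coats. Other tested probe sets of Sec62, Sec63, Srprb, Ssr1 and Sar1a lay beyond that limit. The members farthest below WT at an unadjusted p under 0.05 were the KDEL receptors Kdelr3 and Kdelr2, the lectin cargo receptor Lman1 and Stt3b, a catalytic subunit of the oligosaccharyltransferase. KO held 42.0%, 65.1%, 60.2% and 61.6% of their WT signal. By limma with Benjamini-Hochberg adjustment over all 22063 tested probe sets, 0 of 52 members passed an adjusted p of 0.05, against 0.0352% of all 11357 genes. At an unadjusted p under 0.05, 4 members were lower (11.8% of all genes were) and 0 were higher (8.88% of all genes were). Without KO replicate 3, 3 members were lower (8.76% of all genes). The count was 1 without WT replicate 1 (6.41% of all genes), 1 without WT replicate 2 (6.17%) and 2 without WT replicate 3 (7.48%). With every signal divided by that of the 5' β-actin control, 9 were lower (26.9% of all genes) and 0 higher (1.05%). That 5' signal is also the divisor of the β-actin 3' to 5' ratio given above, so this scaling and RNA integrity cannot be told apart. Every KO array lay below every WT array for 10 members (20.5% of all genes) and above for 1 (12.7%). The members' shares lay near or below those of all genes.

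More members leaned to the lower side than genes in general. The log2 difference was below 0 in 40 of 52 members, or 76.9%, against 57.9% of all genes. The median difference was -0.17 for members and -0.10 for all genes. Of the 52 members, 45 differed by less than 0.5 log2 units, as did 65.8% of all genes. The members' differences ranged from -1.46 to 0.52. In bulk stroma, fewer cells of a type and less RNA per cell cannot be told apart.

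**Figure D1:**
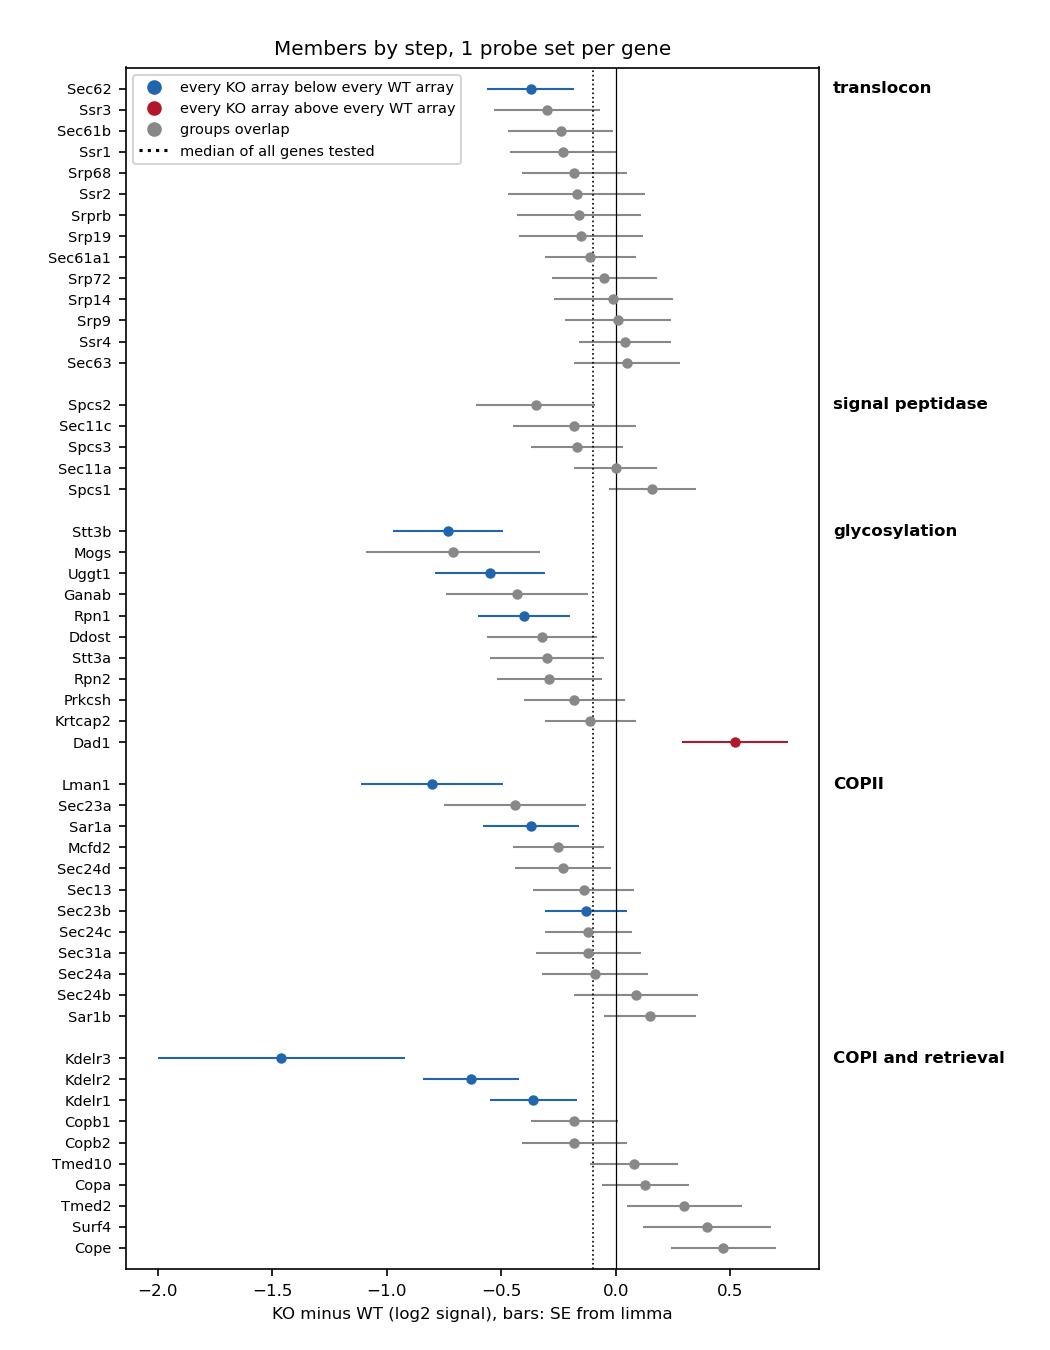
Log2 difference, KO minus WT, for the 52 members grouped by step, with the SE from limma as bars (n = 3 arrays per group). Blue marks members with every KO array below every WT array and red the reverse. Most points lie near the dotted median of all genes, -0.10, and Kdelr3 lies farthest out at -1.46. Scaled on 5' β-actin the whole set moves down, and Dad1, Cope, Surf4 and Spcs1 lie below 0.

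Promoter sequence is shown for Kdelr3, the member with the largest difference, for Stt3b, another lower member, and for Sec24d and Copb1. In Kdelr3, Sec24d and Copb1 a copy of the unfolded protein response element, to which the stress factor XBP1 binds, lies wholly before the start. RefSeq promoter windows (GRCm38.p6, 250 bases before to 50 after each start) were found for 44 members, and the 250 bases before the start are printed from 5′ to 3′ on the strand of the gene. Capitals mark the element, TGACGTGG or its reverse complement, in Kdelr3, Sec24d and Copb1, and the CCAAT box, read on the opposite strand, in Stt3b. The windows are chr15:79516158-79516407 (plus strand) for Kdelr3, chr9:115310469-115310718 (minus strand) for Stt3b, chr3:123267246-123267495 (plus strand) for Sec24d and chr7:114254681-114254930 (minus strand) for Copb1.
Kdelr3: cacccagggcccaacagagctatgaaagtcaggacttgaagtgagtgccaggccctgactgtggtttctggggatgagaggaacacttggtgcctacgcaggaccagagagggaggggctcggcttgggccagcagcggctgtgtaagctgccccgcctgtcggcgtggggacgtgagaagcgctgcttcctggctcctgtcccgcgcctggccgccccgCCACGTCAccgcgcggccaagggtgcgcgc
Stt3b: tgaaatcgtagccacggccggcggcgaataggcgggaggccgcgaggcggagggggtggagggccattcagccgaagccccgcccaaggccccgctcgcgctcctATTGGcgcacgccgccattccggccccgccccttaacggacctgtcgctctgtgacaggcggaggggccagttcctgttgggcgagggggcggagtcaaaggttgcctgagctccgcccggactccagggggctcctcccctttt
Sec24d: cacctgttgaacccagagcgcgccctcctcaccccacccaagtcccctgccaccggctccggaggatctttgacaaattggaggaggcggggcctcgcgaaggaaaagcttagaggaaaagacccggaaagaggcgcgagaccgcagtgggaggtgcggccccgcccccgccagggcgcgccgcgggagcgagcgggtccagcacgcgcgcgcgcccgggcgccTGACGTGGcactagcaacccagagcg
Copb1: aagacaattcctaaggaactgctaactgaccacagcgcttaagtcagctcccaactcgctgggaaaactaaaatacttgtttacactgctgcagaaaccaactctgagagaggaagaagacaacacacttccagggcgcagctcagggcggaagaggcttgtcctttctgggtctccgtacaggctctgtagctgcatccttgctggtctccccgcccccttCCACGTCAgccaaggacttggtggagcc

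The element, searched on both strands, was in 5 of the 44 members' windows (11.4%) and in 0.714% of the windows of 27025 genes. Those genes were not limited to the ones measured here, and the base composition of the windows was not matched. Besides the 3 shown, it lay across the start in Copb2 and just after it in Sec23a. Its inner letters GACGTG, which every copy of it contains, were in 13 of 44 members (29.5%) and in 7.15% of all genes. The ER stress element, CCAAT and CCACG with 9 bases between them, was in 0 of 44 windows and in 0.137% of all, and its relative, ATTGG and CCACG with 1 base between them, was in 1, that of Krtcap2, and in 0.0444% of all. Both contain the letters CCACG, as does the reverse complement of the first element, and the first of them begins with the CCAAT box. The CCAAT box alone, which unlike the other letters searched holds no CG, was as common in members (40.9%) as in all genes (41.1%). On the probe sets that stand for them, the 5 genes with the first element were all below 0, as were 76.9% of all members. Their log2 differences were -1.46 (Kdelr3), -0.44 (Sec23a), -0.23 (Sec24d), -0.18 (Copb1) and -0.18 (Copb2, with 0.22 on its other probe set). The groups overlapped in all of these 5 genes but Kdelr3. A match of letters describes the window and not the factor.

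Kdelr3, 1 of 3 receptors that bind ER residents in the Golgi by a KDEL-type tail, read 888, 1297 and 744 on the WT arrays and 640, 448 and 142 on the KO arrays. The groups did not overlap, and KO replicate 3 was far below the other KO arrays. KO held 42.0% of the WT signal, a log2 difference of -1.46 (SE 0.54; limma adjusted p = 0.212, unadjusted p = 0.0284). Without KO replicate 3 the difference was -0.83 (unadjusted p = 0.0341).

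Kdelr2 read 9316, 9442 and 8079 in WT and 6883, 5617 and 4964 in KO, again without overlap, and its log2 difference was -0.63 (SE 0.21; limma adjusted p = 0.192, and -0.52 without KO replicate 3). A dimmer Kdelr2 probe set gave 0.10, with overlapping groups, and the mean of both gave -0.26. Kdelr1 read 3516, 3555 and 3613 in WT, a narrow range, and 2989, 2817 and 2518 in KO. Its difference was -0.36 (SE 0.19; limma adjusted p = 0.304). All 3 receptors were thus lower on every KO array than on any WT array, on the probe set that stands for each gene, and Kdelr1 and Kdelr3 had no other tested probe set. The exact permutation p was 0.1 for each, the smallest that 3 arrays against 3 allow.

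**Figure D2:**
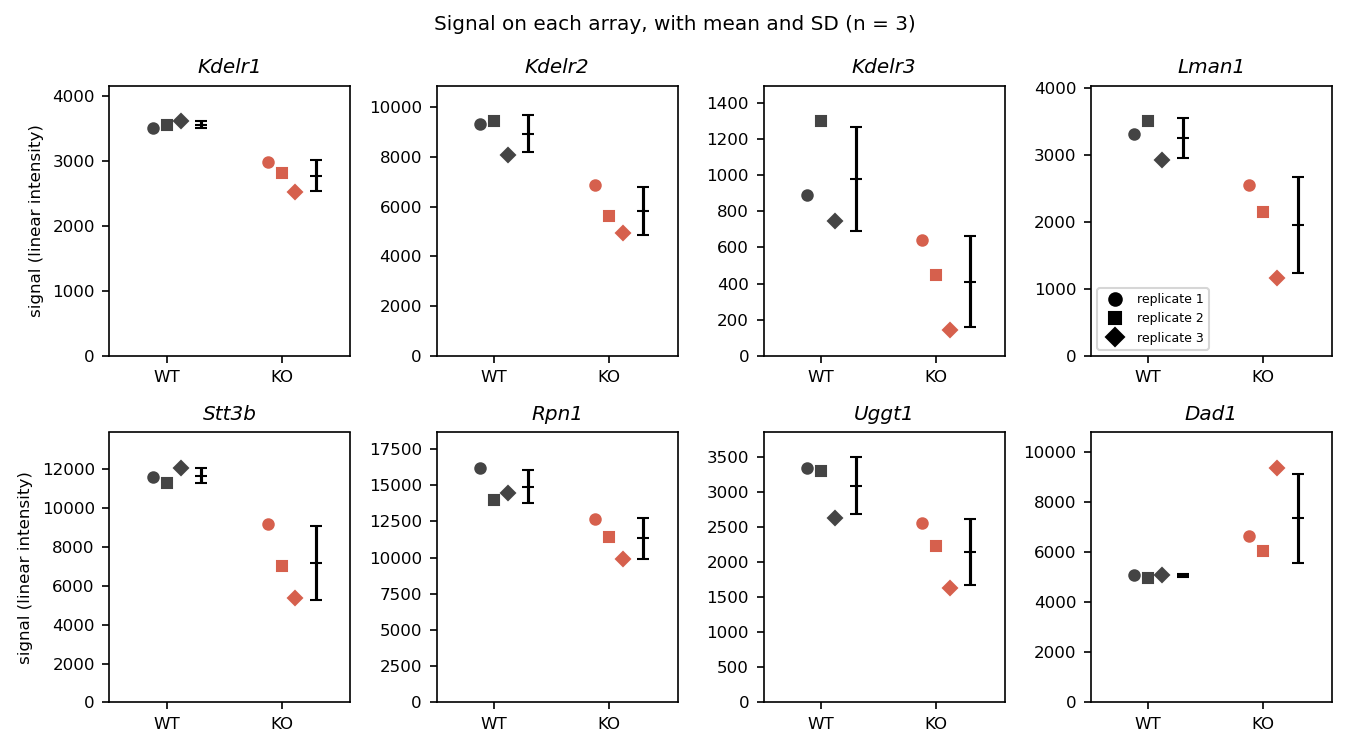
Linear signal intensity on each array for 8 members, with symbols for the replicates and the mean and SD (n = 3) beside each group. In 7 panels all KO arrays lie below all WT arrays, with Kdelr3 at 142 on KO replicate 3, and in Dad1 they lie above, a direction that turns with scaling on 5' β-actin.

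The other 7 members of the COPI and retrieval step lay between -0.18 and 0.47. Cope, the epsilon subunit of the COPI coat, read 3918, 5475 and 4584 in WT and 6306, 5464 and 7589 in KO, a log2 difference of 0.47 (SE 0.23; limma adjusted p = 0.287) that was -0.18 with scaling on 5' β-actin. The groups overlapped by a single KO array, and the difference was 0.35 without KO replicate 3. The alpha, beta and beta' coat subunits Copa, Copb1 and Copb2 had 0.13, -0.18 and -0.18. Surf4, a membrane receptor that loads soluble cargo and cycles back to the ER, was above 0 on all 5 of its probe sets, at 0.22 to 0.54, with overlapping groups on each, and its main probe set had -0.26 under that scaling. On the main probe set the difference was 0.40, and 0.17 without KO replicate 3. The p24 family cargo receptors Tmed10 and Tmed2 had 0.08 and 0.30, but the Tmed2 probe set was Present on only 1 WT and 2 KO arrays. Over the 10 members of this step 5 were below 0 and 5 above, with a median of -0.05 that moved to 0.04 without WT replicate 1 and to -0.12 without WT replicate 3.

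The difference between receptors was not resolved within arrays. The log2 ratio of Kdelr3 to Kdelr1, which no scaling of an array can move, changed by -1.10 from WT to KO (SD 0.42 in WT and 1.01 in KO, n = 3; exact permutation p = 0.2). That of Kdelr2 to Kdelr1 changed by -0.27 (SD 0.14 and 0.12; exact permutation p = 0.2). These ratios belong to a family of 13 pairs of related members, chosen after the values were seen, in which the smallest Benjamini-Hochberg adjusted p was 0.65.

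Glycosylation was the step with the lowest median, -0.32, and 10 of its 11 members were below 0. That median was -0.20 without KO replicate 3. It was -0.21 without WT replicate 2, where that of signal peptidase was -0.21 too. With the mean of each gene's probe sets, 8 members were below 0. Stt3b, the catalytic subunit of the oligosaccharyltransferase form that glycosylates sites missed during translocation, read 11616, 11307 and 12088 in WT and 9164, 7019 and 5382 in KO. The WT arrays were close together and every KO array lay below them, at 61.6% of WT on average. The log2 difference was -0.73 (SE 0.24; limma adjusted p = 0.188, unadjusted p = 0.0178), and -0.54 without KO replicate 3. A second, dimmer Stt3b probe set went the other way without overlap, from 764 to 823 in WT to 950 to 1193 in KO (log2 difference 0.43, SE 0.19), so the direction of Stt3b depends on the probe set read. The mean over its probe sets had -0.15.

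Stt3a, the catalytic subunit that works at the translocon, had -0.30, -0.29 and -0.54 on 3 probe sets, and 2.24 on another that was at or below 37 on every array. The ratio of Stt3b to Stt3a changed by -0.43 (SD 0.30 in WT and 0.27 in KO, n = 3; exact permutation p = 0.3). Among the shared subunits is Rpn1, ribophorin I. Its main probe set read 16204, 14008 and 14483 in WT and 12652, 11454 and 9872 in KO, and all 5 tested Rpn1 probe sets had every KO array below every WT array, with log2 differences of -0.50 to -0.36. These probe sets measure the same samples and are not replicates, and the main one had a limma adjusted p of 0.295. Rpn2 and Ddost, further core subunits, had -0.29 and -0.32 with overlapping groups, and -0.11 and -0.16 without KO replicate 3. Krtcap2, a subunit of the Stt3a form, had -0.11 on the main probe set and -0.50 on another (unadjusted p = 0.0486).

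Dad1, a small membrane subunit of the same enzyme, was the 1 member whose KO arrays all lay above WT on the probe set that stands for the gene. It read 5080, 4975 and 5071 in WT and 6626, 6046 and 9358 in KO, a log2 difference of 0.52 (SE 0.23; limma adjusted p = 0.256) that became -0.14 with scaling on 5' β-actin and was 0.33 without KO replicate 3. Another Dad1 probe set had -0.09, with overlap.

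The 4 genes of glucose trimming were all below 0, with a median of -0.49, or -0.23 without KO replicate 3. Uggt1, which adds a glucose back to misfolded glycoproteins, read 3353, 3312 and 2630 in WT and 2566, 2233 and 1640 in KO, a log2 difference of -0.55 (SE 0.24; limma adjusted p = 0.258), and -0.36 without KO replicate 3. The groups did not overlap, but lay close, and a dimmer Uggt1 probe set had -0.22 with overlap. Mogs, glucosidase I, read 2644, 3530 and 2893 in WT and 2299, 2705 and 991 in KO, where KO replicate 3 alone was far below the rest. Its log2 difference was -0.71 (SE 0.38), with overlapping groups, and -0.27 without KO replicate 3. The glucosidase II subunits Ganab and Prkcsh had -0.43 and -0.18 with overlapping groups, Ganab had -0.20 without KO replicate 3, and a dim Ganab probe set had 0.77. The mean of these 4 genes, relative to WT, was -0.27, -0.17 and -0.96 on the KO arrays and -0.13, 0.26 and -0.13 on the WT arrays, so KO replicate 3 lay far below the other KO arrays.

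**Figure D3:**
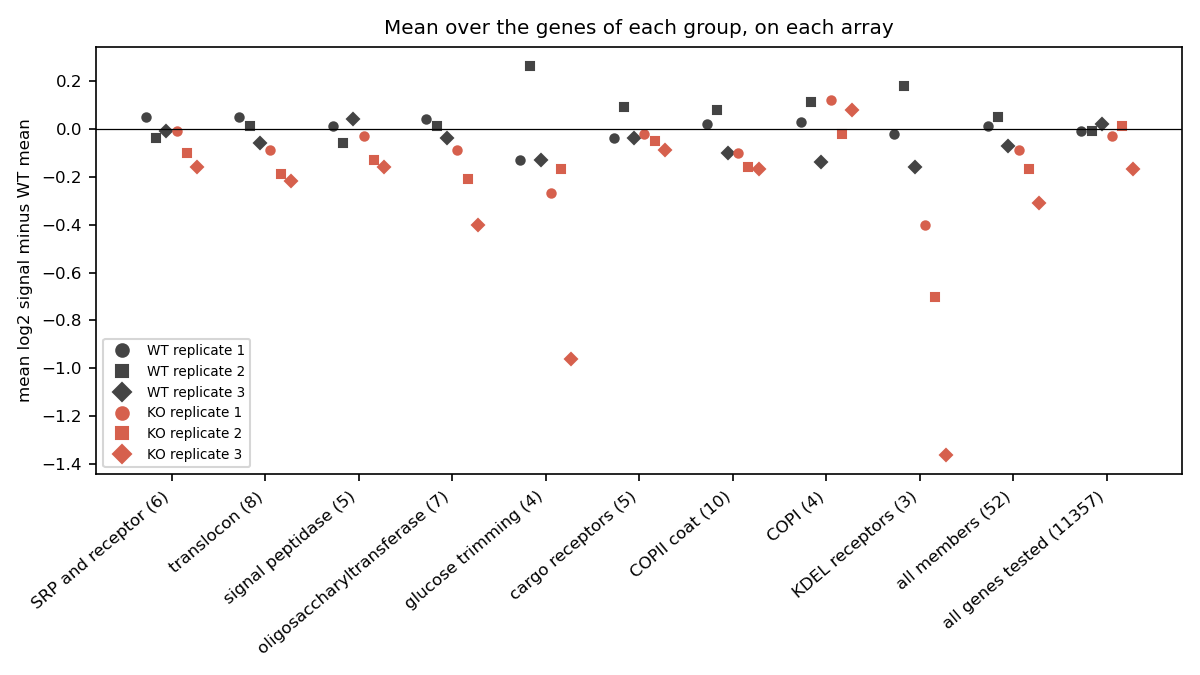
Mean log2 signal of each functional group minus its WT mean, on each of the 6 arrays, with the number of genes in brackets. KO replicate 3 is lowest for glucose trimming at -0.96 and for the KDEL receptors at -1.36, while the COPI coat genes lie around 0 on all arrays. The mean of all genes tested on KO replicate 3 is -0.17.

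At the ER exit, Lman1 stood out. This lectin (ERGIC-53) carries glycoproteins such as clotting factors together with Mcfd2. It read 3319, 3503 and 2927 in WT and 2550, 2153 and 1163 in KO, at 60.2% of WT, without overlap. The log2 difference was -0.80 (SE 0.31; limma adjusted p = 0.225, unadjusted p = 0.0354) and -0.47 without KO replicate 3 (unadjusted p = 0.051). All 5 tested Lman1 probe sets were below 0, from -0.91 to -0.29, and 4 of them had an unadjusted p under 0.05. Its partner Mcfd2 had -0.25 with overlapping groups.

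The COPII coat itself lay close to all genes, with a median of -0.13 over 10 members and 0 of them at an unadjusted p under 0.05 in either direction. The GTPase Sar1a, which starts coat assembly, had -0.37 on the main probe set and 0.51 on another, each without overlap between the groups and in opposite directions, and its relative Sar1b had 0.15. The ratio of Sar1a to Sar1b, on the main probe sets, changed by -0.52 (SD 0.20 in WT and 0.41 in KO; exact permutation p = 0.1, the smallest possible). The inner coat genes Sec23a and Sec23b had -0.44 and -0.13, and Sec23a had -0.21 without KO replicate 3. Sec23b read 2770, 2917 and 2743 in WT and 2416, 2684 and 2583 in KO, so the groups were apart by a small margin. Sec24a, Sec24b, Sec24c and Sec24d, which select cargo, ranged from -0.23 to 0.09, and Sec13 and Sec31a of the outer coat had -0.14 and -0.12. The 6 ratios among the 4 Sec24 genes changed by between -0.18 and 0.31, with exact permutation p of 0.5 to 0.8.

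Entry into the ER showed small differences. On the probe sets that stand for them, the 14 measured genes of targeting and translocation had a median of -0.15. On these, 0 passed an unadjusted p of 0.05 in either direction. For the 6 SRP and SRP receptor genes the values on those probe sets lay between -0.18 and 0.01. Sec62, which helps short and post-translationally delivered proteins through the channel, read 3852, 4296 and 4147 in WT and 3540, 3156 and 2874 in KO, without overlap (log2 difference -0.37, SE 0.19; limma adjusted p = 0.313). Another Sec62 probe set had -0.65, with 977 on KO replicate 2 against 3811 and 3928 on the other KO arrays, and a dimmer one -1.20 (unadjusted p = 0.0104). The channel subunits Sec61a1 and Sec61b had -0.11 and -0.24. Sec61b read 22359, 15416 and 18857 in WT and 18891, 14477 and 14382 in KO, groups that overlapped widely. The translocon-associated protein subunits Ssr1, Ssr2, Ssr3 and Ssr4 had -0.23, -0.17, -0.30 and 0.04 with overlapping groups on their main probe sets.

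Sec63, the partner of Sec62, and Srprb, the membrane subunit of the SRP receptor, gave no single answer. The 5 Sec63 probe sets ran from -0.92 to 0.76, of which 2 were lower at an unadjusted p under 0.05. One Srprb probe set read 631, 568 and 480 in WT and 349, 380 and 291 in KO (-0.72, unadjusted p = 0.011). Another read 141, 155 and 104 in WT and 209, 210 and 217 in KO (0.69, unadjusted p = 0.0149). The brightest Srprb probe set had -0.16, so the level of Srprb cannot be stated as higher or lower.

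**Figure D4:**
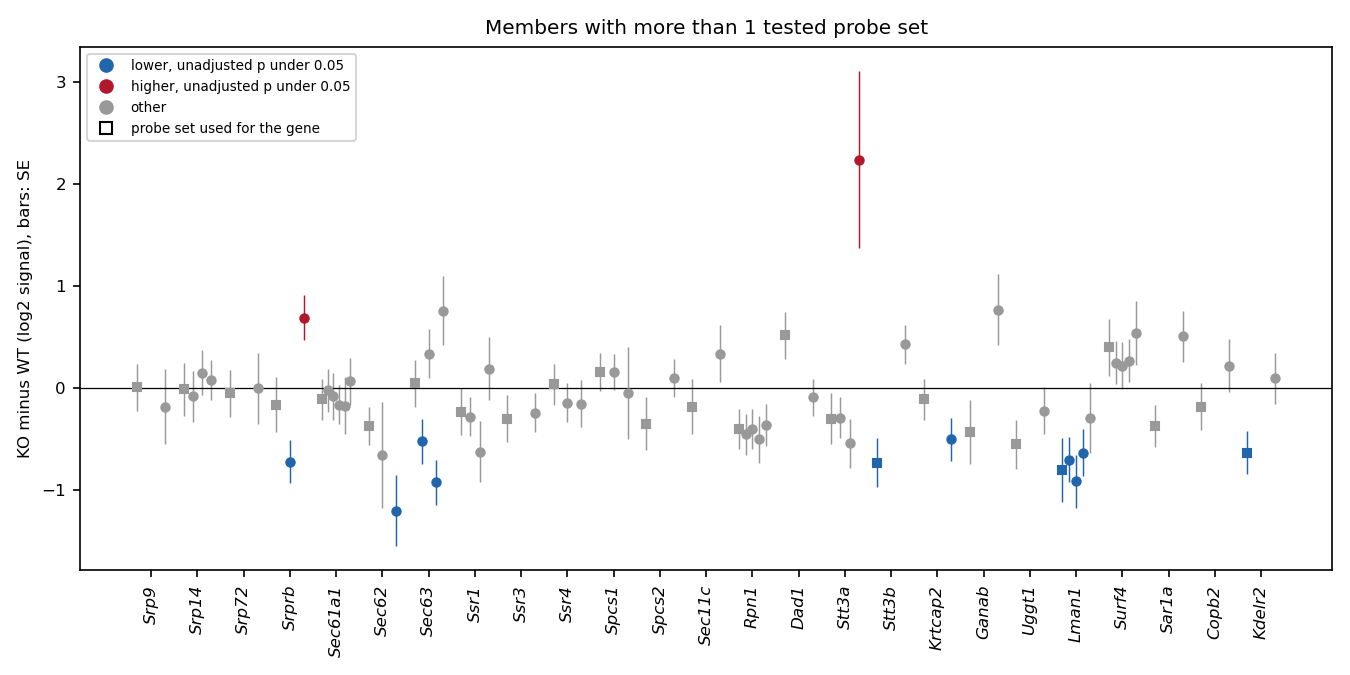
Log2 difference, KO minus WT, with SE, for each tested probe set of the 25 members that have more than 1. Squares are the probe sets that stand for the gene. Lman1 and Rpn1 lie below 0 on all 5 probe sets, while Srprb, Sec63 and Stt3b lie on both sides. Scaled on 5' β-actin, the main probe sets of Surf4 and Dad1 lie below 0.

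Of the 25 members with more than 1 tested probe set, 7 had all of them below 0, 1 had all above and 17 had both signs. Among the 103 tested probe sets, 12 were lower at an unadjusted p under 0.05 (10.2% of all probe sets were) and 2 were higher (9.99%). Of the 12, 4 belonged to Lman1 and 2 to Sec63. The 2 higher ones were a probe set of Srprb and the Stt3a probe set that was at or below 37 on every array.

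Signal peptidase, which removes the leader peptide, showed no separation between the groups in its 5 genes on the probe sets that stand for them. Spcs2 read 3451, 4531 and 3776 in WT and 3081, 4019 and 2302 in KO, a log2 difference of -0.35 (SE 0.26; limma adjusted p = 0.45) that was -0.15 without KO replicate 3, and another Spcs2 probe set had 0.10. Spcs1 and Spcs3, accessory subunits, had 0.16 and -0.17, the former -0.49 with scaling on 5' β-actin. Another Spcs1 probe set read 8293, 8413 and 8704 in WT and 9630, 9032 and 9728 in KO, without overlap (log2 difference 0.16). The catalytic subunits Sec11a and Sec11c had a KO signal at 99.7% and 87.5% of WT.

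The authors' deposited table of signed folds held 6 of the members' probe sets. It gave Kdelr3 3.652, a Sec62 probe set 3.313, a Lman1 probe set 2.907, a Sec63 probe set 2.88, a Srprb probe set 2.527 and Stt3b 2.492. In the authors' deposited table, positive folds went with lower KO signal. All 1493 of its probe sets that were tested here had the sign opposite to KO minus WT, so its sign runs the other way. Of its 1554 folds 1488 were positive, and each negative one was first turned into the reciprocal of its size. Each fold was then 1.534 to 1.535 times the WT to KO ratio of mean signals, which was 2.38 for Kdelr3 and 1.62 for Stt3b. The mean signal of the 5' β-actin control was 1.535 times as high in KO as in WT, so dividing by that control's group means gives the folds in the authors' deposited table.

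Other genes of the same pathways were read from lists kept apart from the members. Of 24 measured genes of glycan assembly and transfer, 4 were lower (11.8% of all genes) and 2 higher (8.88%) at an unadjusted p under 0.05. In 9 all KO arrays lay below WT (20.5% of all genes) and in 3 above (12.7%), and the median was -0.24. Tusc3, an oxidoreductase subunit of the Stt3b form, read 1586, 1789 and 1467 in WT and 1166, 1102 and 698 in KO (log2 difference -0.74, SE 0.25; limma adjusted p = 0.197). Alg5, which makes the dolichol-linked glucose donor, went the other way, with 742, 940 and 929 in WT and 1412, 1659 and 1894 in KO (0.93, SE 0.22; limma adjusted p = 0.148). Canx, the lectin chaperone calnexin, chosen after its values were seen, had 16628, 14574 and 16088 in WT and 12570, 10326 and 8952 in KO, without overlap.

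Of 24 other COPII export genes 3 were lower (11.8% of all genes) and 0 higher (8.88%) at an unadjusted p under 0.05. They included Lman2l and Lman2, lectins related to Lman1, at -0.62 and -0.58 (limma adjusted p = 0.187 and 0.228), with no overlap between the groups, and the median of the list was -0.09. Of 15 other translocation genes 1 was lower (11.8% of all genes) and 1 higher (8.88%) at that level. These were Get4, of tail-anchored protein delivery, at -0.54, and Srp54b, an SRP subunit that has near-identical copies, at 1.38 (limma adjusted p = 0.246 and 0.159). Srp54b was Present on 0 WT and 3 KO arrays, so it was tested only because of the group where it was high. Of 24 other COPI and retrieval genes 0 were lower (11.8% of all genes) and 0 higher (8.88%) at an unadjusted p under 0.05 by limma. Tmed9, a p24 family member, and Golga2, a Golgi matrix protein, had -0.60 and 0.37. The median of that list was -0.05, and that of the translocation list -0.06.

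Markers of several cell types moved with genotype beside these differences. Of 7 listed epithelial or carcinoma markers 3 were measured, and Krt8 and Krt18, keratins, had log2 differences of -1.77 and -1.95. Cdh1, E-cadherin, the third of them, had 0.33 with overlapping groups. The keratins made up most of the summed signal, which was 11338 to 15168 in WT and 2200 to 6377 in KO. Epcam and Krt19 were Present on 0 arrays. On the KO arrays Krt18 read 2616, 2450 and 798, lowest on KO replicate 3, and Cdh1 read 454, 287 and 552, highest there. All 8 fibroblast markers were measured. Pdgfra, Dcn, Dpt and Col3a1 were lower (-1.13, -1.08, -0.94 and -0.58) and Col1a1 and Postn higher (1.7 and 1.11) at an unadjusted p under 0.05. Col1a2 had 1.27, with every KO array above every WT array (limma unadjusted p = 0.0501), and Lum had -0.84 with overlapping groups. The markers thus went both ways. Col3a1 made up most of the summed signal, which was 64538 to 67156 in WT and 41489 to 55502 in KO.

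The 8 macrophage markers were all above 0, 5 of them at an unadjusted p under 0.05, with a summed signal of 80152 to 104118 in WT and 104205 to 150249 in KO, and 5 of 8 T cell markers were measured, all 5 higher at that level, with 1721 to 4220 and 6179 to 7908. The 7 measured neutrophil markers, 3 of them higher, overlapped in sum (71657 to 247668 and 160026 to 209171). The 6 measured endothelial markers, 4 of them higher, did not (854 to 1154 and 1398 to 1763). Cxcr2 of the former and Pecam1 of the latter, both among those higher, were each Present on 0 WT and 3 KO arrays. They were thus tested only because of the group where they were high. Of 10 plasma cell markers 7 were measured and 2, Prdm1 and Sdc1, were higher, with sums of 18385 to 57726 in WT and 22197 to 39106 in KO. Jchain read 47, 58 and 8451 in WT and 159, 4044 and 84 in KO. Ighm, Mzb1 and Pou2af1 were likewise highest on WT replicate 3 and KO replicate 2, with overlapping groups. Tnfrsf17 and Derl3 were Present on 0 arrays. Of 6 skeletal muscle markers 2 were measured, with sums of 339 to 380 and 327 to 342. The part of these cell types in the members' differences was not tested.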

How the data were processed

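Each of 6 RNA samples was labelled with biotin and read on 1 Affymetrix Mouse430_2 array, per the labels' protocols. For 45101 probe sets the authors deposited signal intensities and detection calls, and, for some, a signed fold, a score that matched the WT to KO ratio of means after division by 5' β-actin. The expression report for WT replicate 1 gives a target value of 500, and the trimmed mean was 500 on all 6 arrays, so no further scaling was applied. Their value table matched the intensities in 270606 of 270606 cells. The log2 of the deposited intensity, with no pseudocount, was tested with limma 3.58.1 in R 4.3.3 (lmFit, eBayes, two-sided, no covariates), without 64 control probe sets, and adjusted by Benjamini-Hochberg over 22063 probe sets. Symbols came from the platform annotation, checked by Entrez ID against GRCm38.p6. The precision is limited by the number of arrays.

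The members, lists and tests were chosen with earlier results of these data known. The rule for named genes took members at an adjusted p under 0.05, in each step those at an unadjusted p under 0.05 or its 3 of smallest p, members with opposite probe sets both at an unadjusted p under 0.05 (Srprb), the 2 of smallest p in each pathway list, and Pdia4. Other genes were named after their values were seen. The fit was tested on simulated data. There were 17 alternatives in scaling, filter, model, choice of probe set and arrays left out.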

Additional observations from a re-analysis of the deposited data

How the results depend on the processing

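The count of 0 members past the adjusted threshold held under 16 of 17 alternatives, and scaling on 5' β-actin gave 1, Kdelr3 (adjusted p = 0.00705, range over the alternatives 0.00705 to 0.474). That scaling, which cannot be told apart from RNA integrity, moved the median of all genes by -0.65. It put 9 members lower at an unadjusted p under 0.05 (26.9% of all genes) and 31 with groups apart, and the medians at -0.83 for all members, -0.81 for translocation, -0.82 for signal peptidase, -0.98 for glycosylation, -0.79 for COPII and -0.70 for COPI and retrieval. The same scaling turned Spcs1 (-0.49), Dad1 (-0.14), Cope (-0.18) and Surf4 (-0.26) below 0. Relative to the median of all genes, the members' median was -0.07 with and without it.

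The 4 members lower at an unadjusted p under 0.05 became 2 without a filter (5.04% of all genes) and 2 with array weights (10.5%). Members higher, 0 by the main test, became 1 after quantile normalization (9.40% of all genes), 1 with Present calls on all 6 arrays (9.86%) and 2 with trend and robust (9.78%). The translocation median, -0.15, was -0.07 with 75th percentile scaling and -0.08 with array weights. The signal peptidase median, -0.17, was -0.08 with 75th percentile scaling, -0.10 with array weights and 0 with either other choice of probe set. The COPI and retrieval median, -0.05, was -0.18 with Present calls on all 6 arrays. It was 0.11 where probe sets without _x_at, _s_at or _a_at were preferred. Leaving out each array in turn gave 1 to 5 members lower, 0 to 1 higher and 12 to 20 with groups apart. The medians then ran from -0.15 to -0.06 for translocation, from -0.23 to -0.02 for signal peptidase, from -0.44 to -0.20 for glycosylation and from -0.12 to 0.04 for COPI and retrieval. Sec62 ran from -0.44 to 0.01, and was 0.01 without KO replicate 2, where another of its probe sets was the brightest. Stt3b, Lman1, Kdelr2 and Kdelr3 were below 0 under all 17 alternatives, though Stt3b was at -0.15 and Kdelr2 at -0.26 when each gene's probe sets were averaged. Most of these alternatives could not turn the sign. Leaving out an array cannot do so where the groups do not overlap, and several changes of filter or model left the differences as they were.

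The deviations of samples that share a replicate number had correlations of 0.16, 0.03 and -0.10. Those of samples with unlike numbers ran from -0.36 to 0.30. With 3 arrays per group these values cannot settle whether the numbers pair the samples. With the replicate block 5 members were lower (12.5% of all genes). Among the probe sets that stand for a gene, detection limits only Tmed2, whose signal was 25 to 47. Other tested probe sets that were dim and not Present on every array included those of Stt3a (2 to 37), Lman1 (33 to 77) and Ssr4 (88 to 140).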
